A study of Mus musculus with 24 samples.

Results

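The comparison described here is that of Ctbp2 siRNA with control siRNA in mouse bone marrow-derived macrophages (BMDMs) stimulated with lipopolysaccharide (LPS), and it takes in 6 of the 24 libraries of the series. The members were taken from the library titles: 3 libraries with Ctbp2 siRNA and LPS and 3 with control siRNA and LPS, numbered 1, 3 and 4 in each group. BMDMs are primary macrophages, here grown from the marrow of male C57BL6/N mice 6 to 12 weeks old for 6 days in medium with 30% L929 supernatant, a source of macrophage growth factor. An siRNA is a short RNA duplex that lowers the mRNA it matches; its sequence and the way it was delivered are not given in the sources used here. LPS, a component of the bacterial outer membrane, was given at 100 ng/ml for 4 h, and the vehicle was PBS. The other groups used below were BMDMs with control or Ctbp2 siRNA and vehicle, BMDMs with Ctbp1 siRNA and LPS or vehicle, and the J774.1 macrophage line, wildtype or with a Ctbp1/2 double knockout, all with LPS. The titles and the replicate tags number the libraries differently (1, 3 and 4 in the titles). The labels do not say whether replicates came from separate animals or cultures, so p-values measure the spread between these samples.

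CtBP2 and its paralog CtBP1 are co-repressors: they bind no DNA themselves but are recruited by DNA-bound factors and bring enzymes that remove activating histone marks. LPS is sensed by TLR4, which within hours switches on immediate early transcription factors, NF-kB target genes such as cytokines and chemokines, and, through secreted interferon, a set of antiviral genes. Feedback inhibitors and RNA-degrading proteins then limit the response. In bulk RNA, fewer cells of a type and less RNA per cell cannot be told apart.

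Values are in TPM (a share of a library's RNA corrected for transcript length), so counting depth per library is unknown. The 6 libraries had 11548 to 11801 genes at 1 TPM or more, and log2 profiles of any pair correlated at 0.981 to 0.993. Mitochondrially encoded genes took 4.29%, 4.43% and 4.61% in control replicates 1, 3 and 4 and 4.10%, 4.19% and 4.23% with Ctbp2 siRNA, so the groups did not overlap; the part of this difference in the results was not tested. Macrophage markers summed to 14900 to 16800 TPM. Lymphocyte, stromal, mast cell and red cell markers each summed to at most 8.37 TPM (the table lists 6 of the 11 lymphocyte genes and 1 of the 7 of red cells), and Elane, Ly6g, Thy1 and Lum were at 0 in all 6 libraries. Neutrophil markers summed to 215 to 275 TPM in controls and 190 to 291 TPM with Ctbp2 siRNA, osteoclast markers to 309 to 354 and 268 to 310 TPM, and dendritic cell markers to 149 to 152 and 165 to 175 TPM, mostly Itgax, which macrophages also express. No tested member of these marker lists passed the test; their part in the results was not tested. Control LPS replicate 4 stood apart. Deviations were taken from the mean of the Ctbp1 siRNA LPS libraries, over genes changed at least 4-fold by LPS with Ctbp1 siRNA. Induced genes had a median deviation of −0.17 (log2) in control replicate 4, against 0.11 and 0.15 in control replicates 1 and 3. In the Ctbp2 siRNA libraries the median was 0.12 to 0.16. Repressed genes had a median of 0.26 in control replicate 4, against −0.28 to −0.12 in the other 5 libraries. Results are therefore given with and without control replicate 4.

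Ctbp2 mRNA was at 37.4, 36.9 and 40.3 TPM in control LPS replicates 1, 3 and 4 and at 13.8, 10.4 and 12.3 TPM with Ctbp2 siRNA, so the groups lay far apart. The log2 difference was −1.59 (SE 0.0875, limma adjusted p = 2.15e-08), and −1.55 without control replicate 4. Ctbp1 was at 117, 120 and 131 TPM against 112, 117 and 114 TPM (adjusted p = 0.411). Of 7918 genes tested, 251 (3.17%) passed an adjusted p under 0.05, 61 higher (0.77%) and 190 lower (2.40%) with Ctbp2 siRNA. Most differences were small: 20 of the 251 exceeded 1.5-fold and 1, Ctbp2 itself, exceeded 2-fold. The balance of directions depends on scaling. The median log2 difference of all tested genes was −0.05, and with median-of-ratios scaling, which brings it to 0.01, 124 genes were higher and 81 lower (60.5% higher against 24.3%).

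Without control replicate 4, 161 of 7928 genes were called (2.03%), 58 higher (0.732%) and 103 lower (1.30%). Of the 61 higher calls 36 remained, and of the 190 lower calls 82, while no call changed sign. Another 22 genes were called higher and 21 lower only without it. With the replicate number as a block, 457 genes were called, 122 higher and 335 lower, and all 251 were among them. When the 6 libraries were fitted alone, without the spread borrowed from the other BMDM groups, 4 genes remained: Ctbp2, Lrrc42, Ptma and Hspa1b. The counts were 107 without Ctbp2 siRNA replicate 1 and 125 without Ctbp2 siRNA replicate 3.

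**Figure D1:**
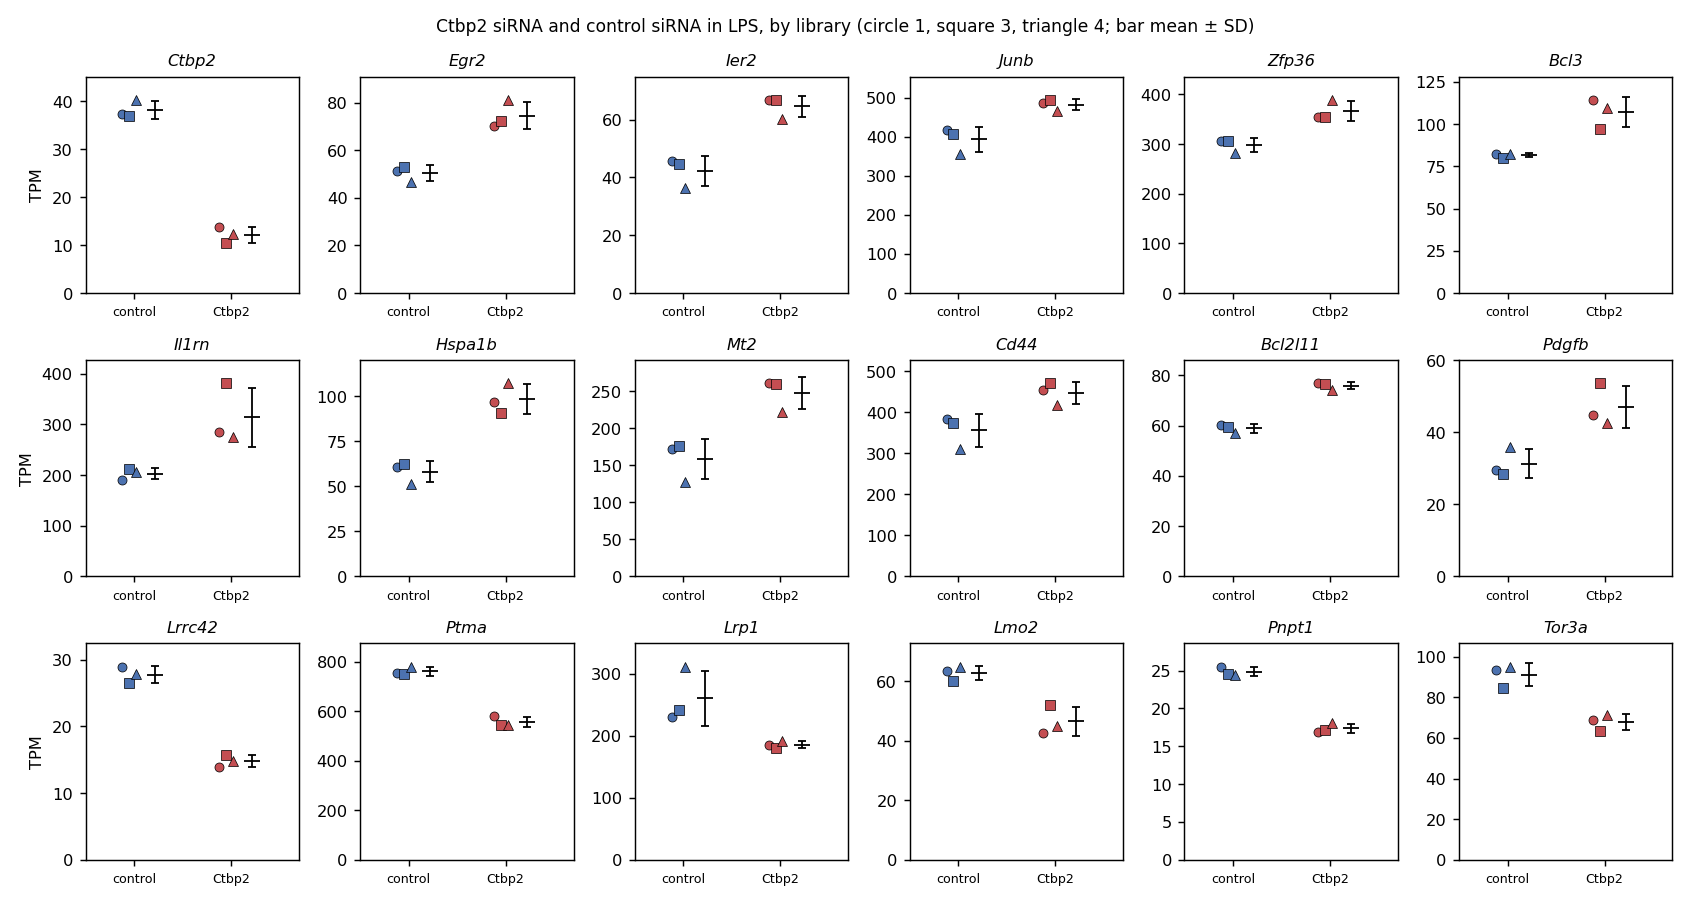
Each panel plots TPM (y axis, from 0) of 1 gene in the control siRNA and Ctbp2 siRNA libraries with LPS; circles, squares and triangles are replicates 1, 3 and 4, and black bars are mean ± SD (n = 3). The groups do not overlap in any of the 18 panels, which show called genes (of all tested genes 4.51% lay wholly higher and 15.3% wholly lower), while most differences are small beside the level: Junb, for example, lies at 356 to 417 TPM in controls and 466 to 495 TPM with Ctbp2 siRNA.

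Immediate early genes, transcription factors that need no new protein to be induced, were among the genes that rose. Of 24 listed genes 16 were tested and 4 rose (Egr2, Ier2, Junb and Fosl2), none fell, against 0.77% of all genes called higher, and the list median was 0.13 (log2) against −0.05 for all genes. Egr2, a zinc finger factor of the early growth response family, was at 51.4, 53.0 and 46.7 TPM in controls and 70.3, 72.3 and 81.2 TPM with Ctbp2 siRNA (log2 difference 0.56, SE 0.0597, adjusted p = 0.000112). In vehicle it was at 61.2 ± 2.98 and 64.4 ± 2.35 TPM (SD, n = 3), so it was lower after LPS than in vehicle in control cells and higher in Ctbp2 siRNA cells. Ier2, a nuclear immediate early protein, was at 45.8, 44.5 and 36.3 TPM against 66.9, 66.7 and 60.3 TPM (0.61, SE 0.0827, adjusted p = 0.000914). Junb, an AP-1 subunit, was at 417, 406 and 356 TPM against 486, 495 and 466 TPM (0.30, adjusted p = 0.00787). For these 3 genes the lowest Ctbp2 siRNA library exceeded the highest control, as for 4.51% of all tested genes (15.3% had the reverse order), and the calls held without each library in turn (adjusted p at most 0.0372). Fosl2, another AP-1 subunit, was at 18.9 ± 2.81 against 26.9 ± 4.04 TPM (0.48, adjusted p = 0.0221), and its call was lost without control replicate 4 (0.0881) or without Ctbp2 siRNA replicate 1 or 3 (up to 0.108). The AP-1 subunits Fos, Jun and Jund did not pass (−0.15, 0.05 and −0.02).

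The serum response factor, which drives several immediate early genes, binds the CArG box, and the bases upstream of the start sites of Egr2 and Zfp36 hold 1 each. They are shown because these are the only higher genes with a CArG box among the 50 of 61 that have an entry in the RefSeq promoter table. Each line gives bases −120 to −1 before the start, 5′ to 3′ on the gene's strand (build GRCm38.p6), with the CArG box in capitals; Egr2 lies at chr10:67537446-67537565 on the plus strand and Zfp36 at chr7:28379229-28379348 on the minus strand.
Egr2: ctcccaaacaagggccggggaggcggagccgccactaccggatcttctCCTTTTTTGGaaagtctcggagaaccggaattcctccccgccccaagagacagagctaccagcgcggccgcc
Zfp36: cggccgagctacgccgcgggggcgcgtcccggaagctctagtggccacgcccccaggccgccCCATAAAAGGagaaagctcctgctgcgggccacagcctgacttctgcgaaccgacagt
The box spans −72 to −63 in Egr2 and −58 to −49 in Zfp36. Within 250 bases upstream on both strands, a CArG box occurs in 482 of 32851 promoter windows (1.47%), in 5 of the 63 windows of higher genes (4 of the 5 belong to start sites of Egr2) and in 2 of the 203 windows of lower genes (0.985%). The AP-1 site TGANTCA was searched too and occurs in 6.75% of all windows. It occurs in 4 of the 63 windows of higher genes (6.35%) and 8 of the 203 windows of lower genes (3.94%). For tested immediate early genes it occurs in 0 of 20 windows, and for tested interferon response genes in 7 of 35 (20%). A match is a description of the letters only.

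Of 16 tested genes for mRNA decay and feedback on the LPS response 3 rose and none fell, against 0.77% of all genes called higher. The list median was 0.12. With the replicate block 5 rose, against 122 of all 7918 genes. Zfp36, which binds and destabilises cytokine mRNA, was at 307, 306 and 282 TPM in controls and 355, 355 and 389 TPM with Ctbp2 siRNA (0.29, SE 0.0567, adjusted p = 0.0099). Il1rn, the secreted antagonist of the interleukin-1 receptor, was at 190, 212 and 206 TPM against 286, 381 and 276 TPM (0.62, SE 0.112, adjusted p = 0.00838). Neither gene's groups overlap, as for 4.51% of all tested genes in the higher direction. The Ctbp2 siRNA libraries vary more for Il1rn, with replicate 3 highest. Zc3h12a, an RNase that cleaves inflammatory mRNA, was at 154, 159 and 140 TPM against 186, 174 and 181 TPM (adjusted p = 0.0416), a call lost without any of the 6 libraries but control replicate 3 (up to 0.145). Of 18 NF-kB subunits and inhibitors 1 rose. This was Bcl3, a nuclear IkB protein, at 82.0, 80.0 and 82.5 TPM against 114, 97.3 and 110 TPM (0.39, SE 0.0720, adjusted p = 0.00894). Nfkbia (0.12, adjusted p = 0.244) and Nfkb2 (0.07, 0.538; −0.03 without control replicate 4) did not pass.

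The cytokines themselves did not pass. By limma none of 13 tested cytokines was called (2 with the replicate block), and 1 of 15 chemokines was higher (4 with the block). Of all 7918 genes 0.77% were called higher, and 122 genes with the block. Of the cytokine and chemokine estimates 11 and 14 lay above 0, and the list medians were 0.29 and 0.30. These medians shrank to 0.05 and 0.11 without control replicate 4. Tnf was at 4782, 4982 and 3179 TPM in controls and 5498, 5520 and 5234 TPM with Ctbp2 siRNA (0.36, adjusted p = 0.0916), and 0.15 without the replicate. Il1b was at 2291, 2630 and 1131 TPM against 2837, 3385 and 2423 TPM (0.59, adjusted p = 0.231), with overlapping groups. For both, control replicate 4 was the lowest library. Ccl22, a T cell attractant, was at 60.2, 60.1 and 30.0 TPM against 83.3, 98.1 and 70.7 TPM (0.79, adjusted p = 0.0489); without control replicate 4 the value was 0.46 (0.135), and the call was lost without any Ctbp2 siRNA library too (up to 0.156). In the block fit Cxcl2 (0.41, adjusted p = 0.0218) and Csf2 (0.93, 0.0483) passed, with adjusted p of 0.22 and 0.108 unblocked.

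Other higher genes belong to glucose use, metal and heat stress, adhesion and survival. Of 23 tested genes of glycolysis and the hypoxia response 4 rose and none fell, against 0.77% of all genes called higher. Without control replicate 4, 2 rose, against 0.732% of all genes. With median-of-ratios scaling 6 rose, against 124 of all 7918 genes. Hk2, the inducible hexokinase, was at 9.17, 9.73 and 9.25 TPM against 14.4, 11.9 and 12.5 TPM (0.42, SE 0.0766, adjusted p = 0.00838) and kept its call without each library. The glucose transporter Slc2a1 was at 131 ± 10.1 against 158 ± 6.67 TPM (0.27, adjusted p = 0.0101), lost only without Ctbp2 siRNA replicate 1 (0.0576). Hif1a, the oxygen-sensitive factor, was at 76.5 ± 3.98 against 87.9 ± 3.32 TPM (0.20, adjusted p = 0.0324) and Pgk1, a glycolytic kinase, at 427 ± 8.77 against 465 ± 8.60 TPM (0.12, adjusted p = 0.0416). Both lost their calls without control replicate 4 (0.113 and 0.1) and without Ctbp2 siRNA replicates 1 or 3. Hif1a also lost its call without Ctbp2 siRNA replicate 4 and Pgk1 without control replicate 3 (up to 0.136 over the 2 genes).

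The inducible heat shock proteins Hspa1a and Hspa1b rose, while the co-chaperone Hsph1 fell. Hspa1b was at 60.8, 62.6 and 51.4 TPM in controls and 97.0, 91.0 and 107 TPM with Ctbp2 siRNA (0.75, SE 0.0914, adjusted p = 0.000384). Hspa1a was at 15.9 ± 0.385 against 25.1 ± 2.43 TPM (0.62, adjusted p = 0.00858); the genes are near-identical copies, so their reads cannot be assigned with certainty. Hsph1 was at 16.6, 17.1 and 18.7 TPM against 13.9 to 14.0 TPM (−0.30, adjusted p = 0.026), a call lost without control replicate 4 (0.0968) or any Ctbp2 siRNA library. The metallothionein Mt2, a metal-binding protein also induced by glucocorticoids, was at 172, 176 and 127 TPM against 261, 259 and 222 TPM (0.65, SE 0.115, adjusted p = 0.00687), and 0.50 without control replicate 4. It was the only one of 10 tested glucocorticoid targets to pass, with a list median of 0.10, against 0.77% of all genes called higher.

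Cd44, the hyaluronan receptor, was at 383, 374 and 310 TPM against 454, 471 and 417 TPM (0.33, SE 0.0640, adjusted p = 0.00974). Of 13 integrin and adhesion genes 2 rose, against 0.77% of all genes called higher. The second, the fibronectin receptor subunit Itga5, was at 359, 361 and 376 TPM against 408, 416 and 442 TPM (0.21, adjusted p = 0.0212). Its call was lost without Ctbp2 siRNA replicate 4 or control replicate 1 (up to 0.0695). Bcl2l11, which encodes the pro-apoptotic protein Bim, was at 60.3, 59.4 and 56.9 TPM against 76.8, 76.6 and 74.2 TPM (0.36, SE 0.0495, adjusted p = 0.000919). The growth factor gene Pdgfb was at 29.5, 28.5 and 35.9 TPM against 44.8, 53.6 and 42.4 TPM (0.57, adjusted p = 0.00687). In both genes every Ctbp2 siRNA library lay above every control, as for 4.51% of all tested genes. Ctss, the lysosomal protease cathepsin S, was abundant, at 3318 ± 149 against 3999 ± 157 TPM (0.27, adjusted p = 0.0097).

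Among the lower genes Lrrc42 had the largest difference after Ctbp2 among those of at least 20 TPM. It was at 29.0, 26.5 and 27.8 TPM in controls and 13.9, 15.7 and 14.8 TPM with Ctbp2 siRNA (−0.86, SE 0.0912, adjusted p = 0.000112). Ptma, which encodes the small acidic nuclear protein prothymosin alpha, was at 753, 749 and 781 TPM against 580, 543 and 545 TPM (−0.45, SE 0.0448, adjusted p = 7.4e-05); reads of its processed copies cannot be separated. Both held without each library in turn and with the 6 libraries alone (0.0106 and 0.0194). Lrp1, an endocytic receptor for lipoproteins and protease complexes, was at 230, 241 and 312 TPM against 185, 181 and 192 TPM (−0.47, SE 0.0767, adjusted p = 0.0038), and at −0.34 without control replicate 4, the highest library. Lmo2, a transcriptional adaptor of blood cell development, was at 63.5, 60.2 and 64.9 TPM against 42.5, 51.9 and 45.0 TPM (−0.43, SE 0.0612, adjusted p = 0.00133). None of these ranges overlap, as for 15.3% of all tested genes in the lower direction.

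Pnpt1, the mitochondrial RNA-degrading enzyme PNPase, was at 24.8 ± 0.607 against 17.4 ± 0.586 TPM (SD, n = 3; −0.49, SE 0.0590, adjusted p = 0.000351), and the helicase Ddx1 at 55.1 ± 1.07 against 39.7 ± 2.38 TPM (−0.47, adjusted p = 0.00894). Etnk1, an ethanolamine kinase of phospholipid synthesis, was at 44.4 ± 0.867 against 33.0 ± 2.34 TPM (−0.42, adjusted p = 0.00141). The T cell co-receptor gene Cd28, low in these cells, was at 9.13, 10.7 and 11.5 TPM in controls and had a mean of 5.35 TPM with Ctbp2 siRNA, where the highest library was at 6.43 TPM (−0.85, SE 0.124, adjusted p = 0.00141). None of these 4 calls was lost on leaving out a library. In the list of inflammasome and cell death genes 2 of 19 fell and 1, Bcl2l11, rose, against 2.40% and 0.77% of all genes. Those that fell were the caspase Casp8 (44.5, 46.8 and 46.2 TPM against 37.1, 40.6 and 38.9 TPM, adjusted p = 0.0289) and the pore-forming protein Bax (276 ± 3.76 against 245 ± 8.02 TPM, 0.0139). Both lost the call with median-of-ratios scaling and without Ctbp2 siRNA replicate 1; Bax also lost it without Ctbp2 siRNA replicate 3, and Casp8 without Ctbp2 siRNA replicate 4 or control replicate 3 or 4 (up to 0.123). None of 24 tested cell cycle genes was called by limma, of which 2 had an estimate above 0 (median −0.19, and −0.08 without control replicate 4). The lists of 28 ribosomal proteins and 13 mitochondrially encoded genes had 0 calls and medians of −0.01 and −0.05.

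Smaller or less stable differences were spread over other lists. Their counts stand beside 0.77% of all tested genes called higher and 2.40% called lower. Slc7a2, which imports arginine, was at 47.8, 42.6 and 25.9 TPM in controls and 70.7, 58.1 and 61.8 TPM with Ctbp2 siRNA (0.74, adjusted p = 0.0365), the only call among 10 genes of itaconate, nitric oxide and arginine metabolism. Il4ra, a receptor subunit for interleukin-4, was at 43.4, 42.5 and 34.2 TPM against 50.7 to 50.9 TPM (0.35, adjusted p = 0.0345) and, beside Egr2, was called among 6 alternative activation genes. In both, control replicate 4 was the lowest library, and the call was lost without it or without any Ctbp2 siRNA library (up to 0.141). The disulfide isomerases Pdia4 (−0.24, adjusted p = 0.0365) and Pdia6 (−0.16, 0.0341), which fold proteins in the endoplasmic reticulum, were the 2 called of 19 stress response entries. The kinase Irak4 (−0.29, 0.0298) was the 1 called of 23 TLR4 signalling genes, and Arl8a (−0.18, 0.0176) and the proton pump subunit Atp6v1b2 (−0.18, 0.0229) fell among 23 lysosomal genes, where Ctss rose. These 5 lower calls were lost with median-of-ratios scaling, and each without at least 2 of the 6 libraries: Ctbp2 siRNA replicates 1 (not Atp6v1b2), 3 (not Irak4) and 4 (not Arl8a), control replicate 1 (Pdia4 and Atp6v1b2), control replicate 3 (Pdia6) or control replicate 4 (not Arl8a), with adjusted p up to 0.123. Of 19 antigen presentation genes H2-D1, a class I heavy chain with close copies, was called higher (0.15, adjusted p = 0.0433), and the call was lost without any library but control replicate 4 (up to 0.118). Lrp1 was the only call of 16 scavenger and lectin receptors and Ctbp2 itself the only one of 14 CtBP co-repressor partners. By limma none was called of 11 genes of cholesterol and fatty acid synthesis, 11 LXR targets, 15 NRF2 targets or 13 Fc and complement receptors.

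**Figure D2:**
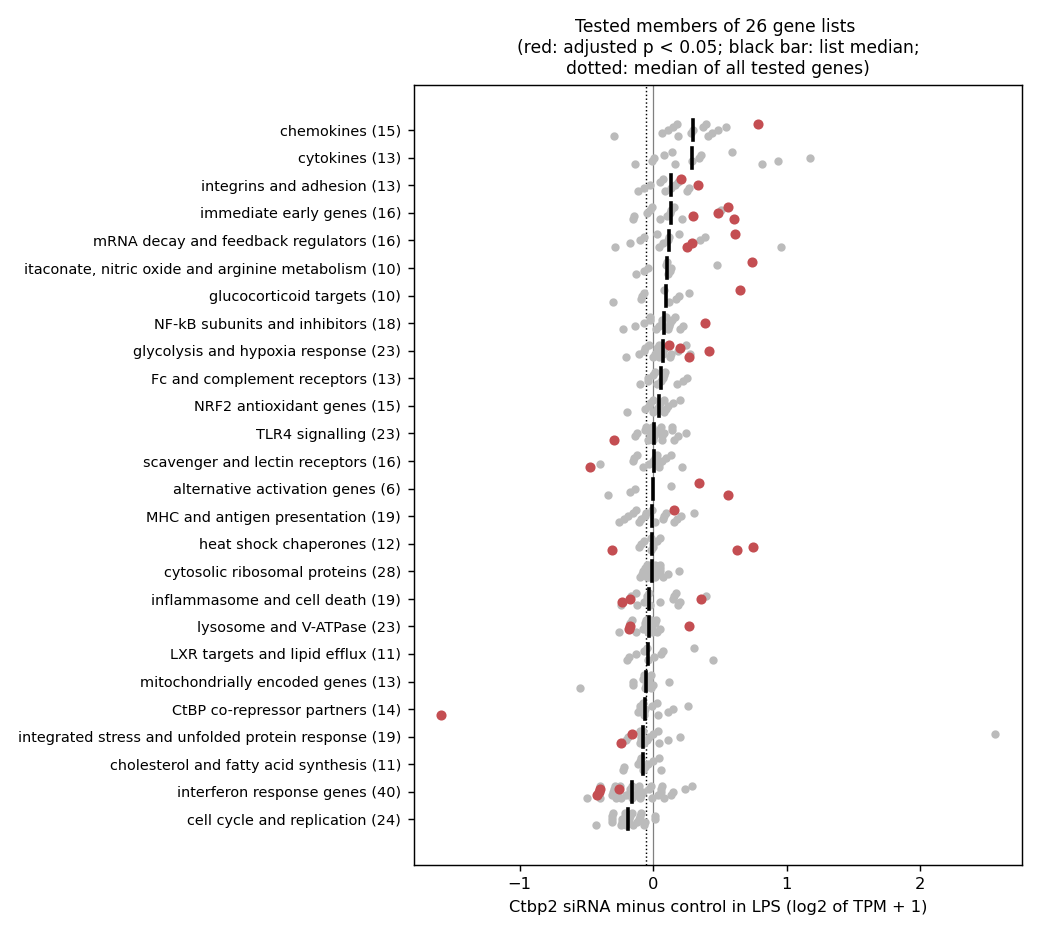
Each point is 1 tested gene of 26 lists (number of tested rows in brackets), placed by its log2 difference between Ctbp2 siRNA and control in LPS (x axis); red points passed an adjusted p under 0.05, black bars are list medians and the dotted line is the median of all tested genes. Chemokine and cytokine medians lie at 0.30 and 0.29 with 1 and 0 called genes, while interferon response genes have a median of −0.16 with 4 called lower; the grey point at the far right is a second identifier of Ddit3.

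In LPS 4 of 40 tested interferon response genes fell (Ifi35, Irgm1, Tor3a and Igtp) and none rose, with a list median of −0.16 and 31 estimates below 0, against 2.40% of all genes called lower. Without control replicate 4, 8 fell, against 1.30% of all genes, and the median was −0.24. With the replicate block 7 fell, against 335 of all 7918 genes. With median-of-ratios scaling 1 fell, against 81 of all 7918 genes, and the median was −0.11. In vehicle, with separate control libraries, 10 of the 40 rose and none fell (median 0.30), against 0.505% of all genes called higher. With median-of-ratios scaling 13 rose in vehicle, against 63 of all 7918 genes. For 30 of the 40 genes the estimate was below 0 in LPS and above 0 in vehicle. Against Ctbp1 siRNA in LPS, 1 of the 40 (Tor3a) was called lower and 0 higher with Ctbp2 siRNA. Of all genes 5.48% were called lower and 1.31% higher there. The list median in that comparison was 0.03, against −0.07 for all genes, so the list as a whole was not lower than with Ctbp1 siRNA.

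The difference between the effect in LPS and that in vehicle was tested as an interaction. It was called for 8 of 7918 genes (0.101%), 1 above 0 (0.0126%) and 7 below 0 (0.0884%), and 5 of the 8 are on the interferon list: Ifit2, Ifit3, Xaf1, Irgm1 and Tor3a. The interaction estimate was below 0 for 39 of the 40 list genes, with a median of −0.45 against −0.02 for all genes. Without control replicate 4 it was called for 38 genes (0.479%; 0.0757% above and 0.404% below 0), 15 of them on the list and all 15 below 0. Without control vehicle replicate 1 it was called for 1 gene, without replicate 4 of that group for 15, and without any other single library for 2 to 10.

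Ifit2, which binds viral RNA, was at 27.3, 27.1 and 36.1 TPM in control vehicle and 52.4, 52.1 and 62.6 TPM with Ctbp2 siRNA in vehicle. In LPS it was at 156, 168 and 124 TPM in controls and 99.7, 99.3 and 116 TPM with Ctbp2 siRNA. The siRNA effect was thus 0.87 in vehicle (adjusted p = 0.00663) and −0.50 in LPS (0.0571; 0.0413 with the replicate block and 0.03 without control replicate 4), and the interaction was −1.37 (SE 0.192, adjusted p = 0.00891). That call was lost only without control vehicle replicate 1 (0.0508). Tor3a, an ATPase of the torsin family, was at 84.3, 80.8 and 83.5 TPM against 93.2, 87.7 and 97.7 TPM in vehicle, and at 93.4, 84.5 and 95.1 TPM against 68.7, 63.5 and 71.1 TPM in LPS. Its effect in LPS was −0.42 (SE 0.0553, adjusted p = 0.000722) and its interaction −0.58 (SE 0.0782, adjusted p = 0.00891). Of the 8 interaction calls it was the only one to hold without each of the 12 libraries in turn (up to 0.0381).

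Irgm1, an interferon-inducible GTPase of cell-autonomous defence, was at 152, 150 and 127 TPM in control LPS and 100, 105 and 118 TPM with Ctbp2 siRNA (−0.40, SE 0.0870, adjusted p = 0.0206; −0.48 without control replicate 4). In vehicle it was at 83.7 ± 6.43 against 103 ± 5.07 TPM (0.29, adjusted p = 0.123). Igtp, a GTPase of the same family, was at 55.2, 53.4 and 42.4 TPM against 38.8, 34.7 and 38.9 TPM in LPS (−0.41, adjusted p = 0.0197; −0.53 without control replicate 4). The ranges in LPS do not overlap for either gene, as for 15.3% of all tested genes in the lower direction. In both, control replicate 4 was the control closest to the Ctbp2 siRNA libraries. Ifi35 was at 71.7 ± 4.74 against 59.7 ± 2.09 TPM (−0.26, adjusted p = 0.0213). These 3 calls were lost with median-of-ratios scaling. They were also lost without Ctbp2 siRNA replicate 3 (all 3), control replicate 1 (Irgm1 and Igtp), Ctbp2 siRNA replicate 1 (Irgm1) or control replicate 3 (Ifi35), with adjusted p up to 0.1. Slfn9, a Schlafen family gene outside the list, was at 23.8 ± 3.52 against 16.6 ± 0.937 TPM (−0.49, adjusted p = 0.012; 0.0553 without Ctbp2 siRNA replicate 1). Isg15, a ubiquitin-like modifier, was at 594, 594 and 386 TPM against 581, 569 and 559 TPM (0.15, adjusted p = 0.593), and at −0.06 without control replicate 4, its lowest library.

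Interferon signalling acts through the ISRE, whose core was searched as a pair of GAAA repeats with any 2 bases between them. The upstream bases of 3 GTPase genes are shown because Irgm1 and Igtp were called lower in LPS and Irgm1 and Tgtp2 in the interaction (that of Igtp was −0.59, adjusted p = 0.0909); lines are as above with the core in capitals, on chr11:48871421-48871540 (Irgm1, minus strand), chr11:58199436-58199555 (Igtp, plus strand) and chr11:49064213-49064332 (Tgtp2, minus strand) of GRCm38.p6.
Irgm1: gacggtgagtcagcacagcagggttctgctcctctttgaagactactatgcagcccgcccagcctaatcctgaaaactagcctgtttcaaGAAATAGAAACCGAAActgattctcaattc
Igtp: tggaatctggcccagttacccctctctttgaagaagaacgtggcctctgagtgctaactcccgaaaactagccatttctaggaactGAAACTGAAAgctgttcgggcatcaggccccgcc
Tgtp2: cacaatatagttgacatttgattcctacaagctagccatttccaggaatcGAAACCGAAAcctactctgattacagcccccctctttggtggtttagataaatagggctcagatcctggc
Irgm1 holds 2 overlapping cores between −30 and −15, Igtp 1 at −34 to −25 and Tgtp2 1 at −70 to −61. Tgtp2 rose in vehicle, from 7.65, 7.76 and 8.82 TPM to 14.8, 15.7 and 18.9 TPM (0.94, adjusted p = 0.00961; 0.0508 without control vehicle replicate 1). In LPS it was at 41.8 ± 1.55 against 31.5 ± 3.45 TPM (−0.40, adjusted p = 0.17), and its reads may be shared with a close copy. Within 250 bases upstream on both strands the core occurs in 978 of 32851 windows (2.98%), in 17 of the 35 windows of tested interferon list genes (48.6%; 30 of 40 genes have an entry) and in 8 of the 203 windows of genes lower in LPS (3.94%) and in 5 of the 63 windows of genes higher in LPS (7.94%). Among genes called in the interaction it occurs in 3 of 11 windows (27.3%), those of Ifit3, Irgm1 and Tgtp2. Ifi35, called lower in LPS, and Xaf1, called in the interaction, have an entry but no core.

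**Figure D3:**
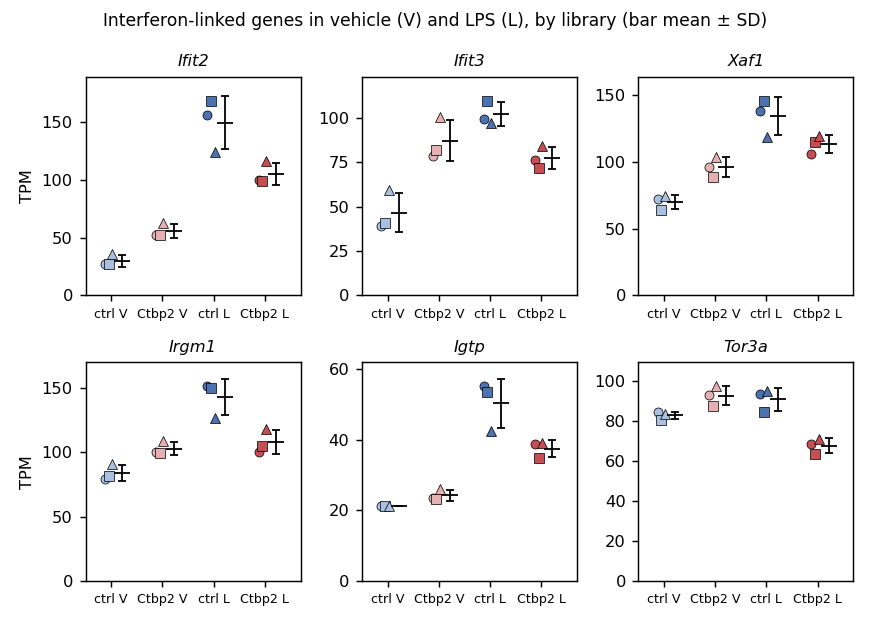
TPM (y axis, from 0) of 6 interferon-linked genes in control and Ctbp2 siRNA libraries with vehicle (V) or LPS (L); circles, squares and triangles are replicates 1, 3 and 4 and black bars are mean ± SD (n = 3). In Ifit2 the Ctbp2 siRNA libraries lie above the controls in vehicle (52.1 to 62.6 against 27.1 to 36.1 TPM) and below them in LPS (99.3 to 116 against 124 to 168 TPM).

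**Figure D4:**
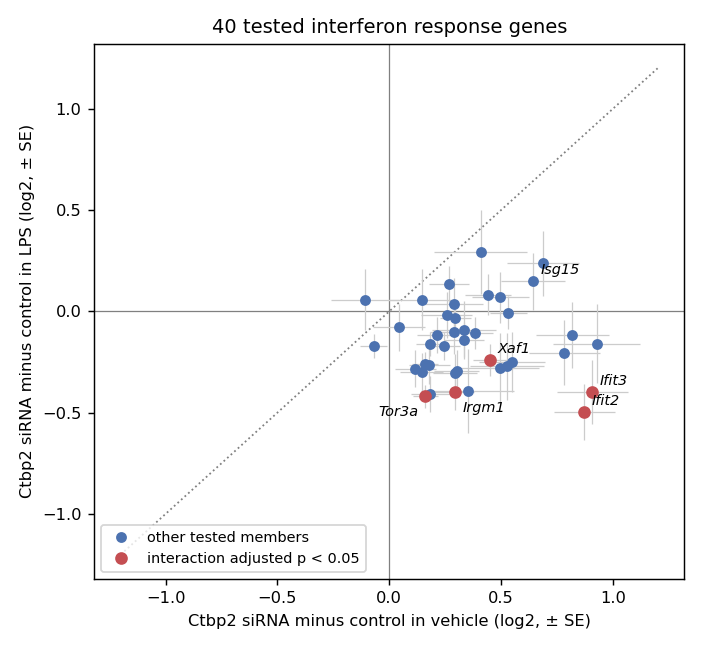
Each point is 1 of 40 tested interferon response genes, with the log2 difference between Ctbp2 siRNA and control in vehicle on the x axis and in LPS on the y axis (bars are SE; the dotted line marks equal effects). Of the 40 points 30 lie at the lower right, higher in vehicle and lower in LPS; red points are the 5 with a called interaction.

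The differences in LPS were also grouped by how genes respond to LPS in the Ctbp1 siRNA libraries. These libraries do not enter the differences themselves. They enter the estimate of the spread and the choice of genes tested, so the calls are not independent of them. Among 129 genes at least 4-fold lower with LPS 5.43% were called lower with Ctbp2 siRNA, and among 267 genes at least 4-fold higher 0.749%. The median differences of these classes were −0.13 and 0.10 (log2). Without control replicate 4 they were 0.01 and 0.00, and 2.33% and 1.14% were called lower, so the gradient over classes was not present without that library.

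**Figure D5:**
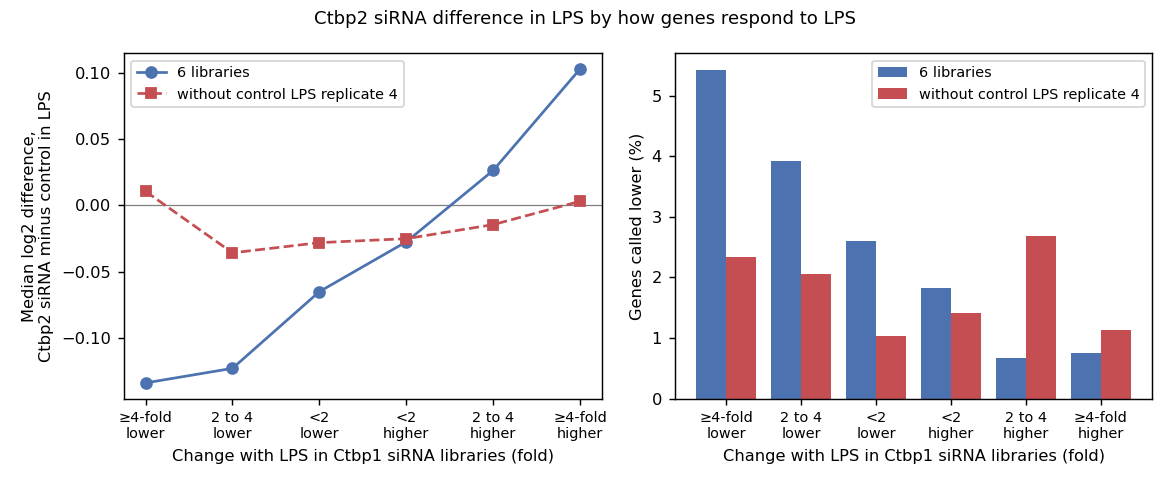
Genes are placed in 6 classes by their fold change with LPS in Ctbp1 siRNA libraries (x axis); the left panel shows the median log2 difference between Ctbp2 siRNA and control in LPS, the right panel the percentage of genes called lower. With all 6 libraries (blue) the medians run from −0.13 to 0.10, and without control LPS replicate 4 (red) they stay between −0.04 and 0.01.

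The same siRNA in vehicle gave 81 calls (1.02%), 40 higher (0.505%) and 41 lower (0.518%). There were 21 to 52 calls without any 1 of the 6 vehicle libraries, 147 without control LPS replicate 4 and 185 with the replicate block. Of the 81 vehicle calls 29 were also called in LPS, all in the same direction, 9 higher and 20 lower (35.8% of the vehicle calls and 11.6% of the LPS calls). Of all 7918 tested genes 3.17% were called in LPS and 1.02% in vehicle. Both comparisons come from the same fit and share the estimate of the spread of each gene, so their calls are not independent. Il1rn rose to a similar level without LPS, at 205 ± 8.87 against 327 ± 46.8 TPM (0.66, adjusted p = 0.0105), and its interaction was −0.05 (adjusted p = 0.978). Ptma (−0.34, adjusted p = 0.00275), Hspa1b (0.57, 0.00698) and Calu, a calcium-binding protein of the endoplasmic reticulum (−0.33, 0.00663; −0.33 in LPS with adjusted p = 0.00245), were also called in vehicle, and none of these 4 calls was lost on leaving out a library. For Egr2 the effect differed between conditions: 0.07 in vehicle (adjusted p = 0.648) and 0.56 in LPS, with an interaction of 0.48 (SE 0.0844, adjusted p = 0.033) that was lost without 8 of the 12 libraries (up to 0.127). For Ier2 (interaction 0.49, adjusted p = 0.141), Zfp36 (0.29, 0.225) and Lrp1 (−0.27, 0.488) a difference between LPS and vehicle was not called.

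Against Ctbp1 siRNA in LPS, a comparison of the same Ctbp2 siRNA libraries in which control siRNA libraries enter only the estimate of the spread, 538 genes were called (6.79%), 104 higher (1.31%) and 434 lower (5.48%) with Ctbp2 siRNA (914 with the replicate block; 210 higher and 121 lower with median-of-ratios scaling). There were 162 to 340 calls without Ctbp1 siRNA replicate 3 or 4 or any Ctbp2 siRNA library, and 1066 without control LPS replicate 4. Egr2 was at 58.8 ± 1.88 TPM in the Ctbp1 siRNA libraries, between control (50.4 ± 3.29) and Ctbp2 siRNA (74.6 ± 5.81), and the 2 siRNAs differed by 0.34 (SE 0.0597, adjusted p = 0.00564). Ier2 (0.48, adjusted p = 0.00491), Junb (0.30, 0.00507), Hspa1b (0.83, 0.00014), Mt2 (0.59, 0.00934) and Bcl2l11 (0.25, 0.011) were higher, and Ptma (−0.51, 5.69e-06), Lrp1 (−0.45, 0.00458), Lmo2 (−0.36, 0.00458), Lrrc42 (−0.52, 0.00507) and Tor3a (−0.32, 0.00507) lower, than with Ctbp1 siRNA. None of these calls, nor that of Egr2, was lost on leaving out a library. A difference was not called for Pdgfb (41.9 ± 6.09 TPM with Ctbp1 siRNA, 0.16, adjusted p = 0.316), Bcl3 (0.23, 0.0674) or Il1rn (0.38, 0.0524). Zfp36 (0.26, adjusted p = 0.0158), Hspa1a (0.54, 0.0143), Cd44 (0.28, 0.0181) and Hk2 (0.27, 0.0429) were called higher, but less stably. Leaving out single libraries lost the call of Zfp36 and Hspa1a for 2 libraries each, Cd44 for 3 and Hk2 for 4. Of 13 tested cytokines 3 were called higher than with Ctbp1 siRNA, against 1.31% of all genes, with a list median of 0.365. Tnf (0.42, adjusted p = 0.037), Il12b (1.01, 0.0359) and Csf2 (1.09, 0.0435) were called higher. Each of these calls was lost without 5 or 6 single libraries (up to 0.141).

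In J774.1 cells with LPS, from separate libraries, 3272 of 7782 genes (42.0%) were called between the Ctbp1/2 double knockout and wildtype, 25.4% higher and 16.6% lower, so a call there is common. In that comparison Ctbp1 was lower by −2.96 (log2) and Ctbp2 by −0.31. Of the 39 higher genes of the siRNA comparison that were tested there, 10 were higher (25.6%) and 15 lower (38.5%), and of 150 lower genes 62 were higher (41.3%) and 17 lower (11.3%), against 26.5% higher and 16.0% lower of the 6544 genes tested in both. Ier2 (−0.74, adjusted p = 1.05e-05), Mt2 (−0.99, 1.25e-05) and Bcl2l11 (−0.59, 0.0002) were lower there, and Cd44 (0.50, 3.54e-06) and Itga5 (1.24, 2.44e-08) higher. All 39 tested interferon list genes were called higher in the knockout, Ifit2 by 3.12 (adjusted p = 9.11e-09) and Tor3a by 0.52 (8.21e-06), while in BMDMs with LPS both estimates were below 0 with Ctbp2 siRNA. Calu was called lower in both BMDM conditions and in the knockout (−0.21, adjusted p = 0.00154).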

How the data were processed

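Reads were quantified by the authors with Salmon 1.9.0 and compared with DESeq2 1.44.0 in R 4.4.1, per the submitters' processing notes; per the file headers the BMDM values are gene-level scaled TPM on mm39. Each BMDM or J774.1 library has 1 TPM column in the deposited tables. The authors' tables also hold a mean signal per gene in normalized counts (not used here), log2 fold changes and p-values of their own comparisons, printed only where named. Per the labels' protocols the library kit is unstranded, so reads of overlapping or antisense genes cannot be told apart.

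From the TPM, limma 3.58.1 (R 4.3.3; lmFit, eBayes with trend and robust estimation) was fitted to log2(TPM + 1), which understates changes of low genes. Genes whose mean in the fitted libraries reached 10 TPM were tested, with 1 coefficient for each of 6 BMDM groups (18 libraries), and the 6 J774.1 libraries alone. Benjamini-Hochberg adjusted p under 0.05 over all genes of 1 of 5 comparisons is a call, and every adjusted p printed is from limma unless the authors' table is named. TPM means are given with SD. Tested on simulated data for the main comparison (7918 genes), the fit called 86% of genes changed by 0.5 and 97% of those changed by 1 (log2). Of its 192 calls 9 were false. The simulated noise was independent between genes and libraries, so a library that deviates as a whole, such as control LPS replicate 4, was not covered. These shares therefore do not measure how reliable the calls in the real data are.

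Control and Ctbp2 siRNA libraries in LPS with the same title number deviated together from their group means (correlation over genes 0.103, 0.111 and 0.191 for replicates 1, 3 and 4). By the rule used (each above 0.1) the numbers pair them, though only narrowly for replicates 1 and 3. This rests on the data, not on a label. The main fit leaves the pairing out, and the block fit uses it for all 6 BMDM groups. Members and gene lists were chosen with earlier results of these data known. Genes named are Ctbp1 and Ctbp2, per direction the 12 called genes with the greatest change and at least 20 TPM, up to 6 called members of each of 26 lists, the 3 most abundant members of 5 lists (cytokines, chemokines, interferon, NF-kB, glucocorticoid), the 8 largest per direction called only without control LPS replicate 4, the 5 largest per direction of the interaction and of Ctbp2 against Ctbp1 siRNA, and genes called alike in LPS, vehicle and J774.1, without predicted genes; Gm13464, Ddit3, Itgax, Fos, Jun and Jund are not covered by that rule and were picked with their values known. Promoter sequences come from RefSeq (GRCm38.p6), matched by symbol, and were not placed on mm39. Alternatives tried were other pseudocounts, filters, scaling, a replicate block, a plain eBayes, the compared libraries alone and leaving out each library.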

Additional observations from a re-analysis of the deposited data

Results flagged for a closer look

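The effect of Ctbp2 siRNA differed between LPS and vehicle for 8 genes by limma's interaction test. The difference of effects (log2, LPS minus vehicle) was −1.37 for Ifit2, −1.34 for Tgtp2, −1.31 for Ifit3, −0.69 for Irgm1, −0.69 for Xaf1, −0.65 for the predicted gene Gm13464, −0.58 for Tor3a and 0.48 for Egr2. Tor3a kept its call without each of the 12 libraries in turn, and Ifit2 without all but control vehicle replicate 1 (adjusted p = 0.0508). The other 6 each lost it without 5 to 9 of the 12, with adjusted p up to 0.149. Ifit3 was at 39.4, 41.1 and 59.3 TPM in control vehicle against 78.9, 82.3 and 101 TPM with Ctbp2 siRNA, and at 99.5, 110 and 97.5 TPM against 76.2, 71.9 and 84.1 TPM in LPS. Xaf1 was at 70.1 ± 5.46 against 96.4 ± 7.77 TPM in vehicle and 135 ± 14.0 against 114 ± 6.69 TPM (SD, n = 3) in LPS, where the groups touch through control replicate 4.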

How the results depend on the processing

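No named gene called in LPS changed sign under any alternative run; among the uncalled ones Ebi3, Gbp5, Isg15, Nfkb2 and Zfp36l2 did under at least 1. Of 53 named genes called in LPS, 50 kept the call with a pseudocount of 0.1, 52 with 5, 53 with the replicate block, 40 with median-of-ratios scaling, 37 without control LPS replicate 4 and 4 of 51 with the 6 libraries alone. The count of 251 calls ranged from 107 to 330 when single libraries were left out, and was 132 with no filter on low values, 4 with the 6 libraries alone and 457 with the replicate block. Alternatives added after seeing the data gave 156 (without control LPS replicate 4 and median-of-ratios scaling, 92 higher and 64 lower), 12 (the compared libraries alone, without that replicate) and 1 (those 6 with the replicate block). In vehicle the 81 calls ranged from 21 to 147 without single libraries, and were 45 with no filter, 45 with a plain eBayes and 185 with the replicate block, though same-numbered vehicle libraries did not all deviate together (0.0871, 0.115 and −0.0348). The 8 interaction calls ranged from 1 to 38, and were 4 with a mean of at least 1 TPM, 0 by limma with no filter (1435 at an unadjusted p under 0.05), 2 with median-of-ratios scaling, 14 with the replicate block and 3 with a plain eBayes. Against Ctbp1 siRNA the 538 calls ranged from 162 to 1066, and were 227 with no filter, 331 with median-of-ratios scaling, 138 with the compared libraries alone and 914 with the replicate block. Same-numbered Ctbp1 and Ctbp2 siRNA libraries in LPS did not all pass the pairing rule (0.0899, 0.283 and 0.00646 for replicates 1, 3 and 4). With median-of-ratios scaling 51.1% of the J774.1 calls were higher, against 60.5%. The block changed no call of a named gene to a loss, and 11 further named genes passed with it. TPM keeps no depth, so counting error is unknown for the low genes.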

Other observations

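The authors' deposited table calls 463 genes in this comparison, 299 higher and 164 lower, of which 391 were tested here and 169 were called here too (59 higher and 110 lower). Of the 251 genes called here, 2 higher and 80 lower are not called in the authors' deposited table, where the median log2 fold change over genes tested here is 0.02 against −0.05 here. A further 72 of the authors' calls lie below the mean of 10 TPM used here, 29 of them higher. Leaving out predicted genes, the 4 higher and 2 lower of these with the smallest adjusted p in the authors' deposited table follow; their mean was under 10 TPM over all 18 BMDM libraries. Flrt3, a leucine-rich membrane protein of cell adhesion, was at 14.6, 14.8 and 13.4 TPM in control LPS replicates 1, 3 and 4 and 18.4, 21.5 and 20.1 TPM with Ctbp2 siRNA. Plk3, a stress-responsive kinase, was at 5.77, 6.82 and 6.01 TPM against 9.22, 9.08 and 9.74 TPM. Errfi1, a feedback inhibitor of EGF receptor signalling, was at 7.07, 8.18 and 6.43 TPM against 10.8, 11.6 and 11.7 TPM. Ly6a, the surface antigen Sca-1, was at 4.69, 4.22 and 5.42 TPM against 9.01, 14.4 and 8.65 TPM. Lratd2 was at 2.35, 2.33 and 2.94 TPM against 1.36, 1.37 and 1.43 TPM, and Slc19a2, a thiamine transporter, at 3.18, 3.40 and 4.82 TPM against 1.80, 1.98 and 2.49 TPM. The ranges of these 6 genes do not overlap between the groups. Of the genes tested here 4.51% lay wholly higher and 15.3% wholly lower. The 6 genes were chosen by p-values from the same libraries, after their values were seen, and were not tested here.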
